A study of Mus musculus with 15 samples.

Results

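The genes described here are 10 early-response transcription factors of the mouse: the FOS family members Fos, Fosb, Fosl1 and Fosl2, the JUN family members Jun, Junb and Jund, the zinc finger factor Egr1, the orphan nuclear receptor Nr4a1 and the stress factor Atf3. They were taken by name, not by their values, from a read count table that holds values for 17892 genes, and all 10 were found and passed the filter on low counts that left 14853 genes to test. RNA was sequenced in 15 libraries from isolated brain cells positive for PDGFRβ, a surface receptor that marks pericytes and other mural cells of the vessel wall. The groups were 4 libraries of miR-210 knockout (KO) mice 24 h after neonatal hypoxia-ischemia (HI), 4 of wild-type (WT) mice 24 h after HI, 4 of KO sham mice and 3 of WT sham mice. The question is how the early genes differ with the injury, with the loss of the hypoxia-induced microRNA miR-210, and with both. No source used here gives the age, sex or strain of the mice, the design of the knockout allele, how the cells were isolated or whether a library is 1 animal, so the p-values measure the spread between libraries, which may be technical.

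FOS and JUN proteins pair through leucine zippers to form the transcription factor AP-1. JUN proteins can pair with each other as well as with FOS proteins, and ATF3 is a related zipper protein that can pair with JUN. In most cells the genes are induced within minutes by growth factors, calcium entry or stress through MAP kinases and the promoter-bound factors SRF, ELK and CREB, and their transcripts decay quickly. FOSL1 and FOSL2 lack the strong activation domain of FOS and typically appear later. EGR1 and NR4A1 are induced by the same signals and are held back by their own targets, such as the NAB corepressors for EGR1.

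Levels are given as CPM, the usual library-scaled counts, here after TMM normalisation. Total counts ran between 15436376 and 18118697 per library. Pdgfrb itself averaged 356 ± 174 CPM in KO HI, 925 ± 125 CPM in WT HI, 516 ± 219 CPM in KO sham and 860.5 ± 154 CPM in WT sham libraries (SD, n = 4, 4, 4 and 3). Markers of other brain cells were also read: the 10 neuron markers summed to between 23.4 and 1047 CPM and none of them was at 0 in any library. They were highest in KO sham 1, KO HI 3, KO sham 3, KO HI 2 and WT sham 2. Across the 15 libraries, pericyte markers summed to 1671 to 11059 CPM, endothelial markers to 2277 to 9190.2 CPM and microglia markers to 1797 to 12987 CPM. Astrocyte markers summed to 429.9 to 11408 CPM, oligodendrocyte markers to 14.3 to 8257 CPM, and choroid plexus and ependymal markers to 63.3 to 52589.8 CPM. The libraries thus held transcripts of several cell types beside pericytes. The line of Mir210 carried no value, so the counts do not check the knockout. In these bulk libraries, fewer cells of a type and less RNA per cell cannot be told apart.

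The promoters of the 5 members whose levels or proportions are described most closely below are shown so that the regulatory letters can be read beside the counts. They were taken from RefSeq on GRCm38.p6, the build of that table, while the submitters' processing notes name mm39. Each runs for 300 bases, 250 before the annotated start and 50 after it, 5′ to 3′ on the gene's strand. Capitals mark TGACG, the core of the site bound by CREB and ATF proteins, which reads CGTCA on the other strand, and GCGNGGGCG, the site bound by EGR proteins, on either strand. The windows are chr5:32136222-32136521 on the plus strand for Fosl2, chr15:101266596-101266895 on the plus strand for Nr4a1, chr7:19309996-19310295 on the minus strand for Fosb, chr12:85473640-85473939 on the plus strand for Fos and chr1:191183284-191183583 on the minus strand for Atf3.
Fosl2: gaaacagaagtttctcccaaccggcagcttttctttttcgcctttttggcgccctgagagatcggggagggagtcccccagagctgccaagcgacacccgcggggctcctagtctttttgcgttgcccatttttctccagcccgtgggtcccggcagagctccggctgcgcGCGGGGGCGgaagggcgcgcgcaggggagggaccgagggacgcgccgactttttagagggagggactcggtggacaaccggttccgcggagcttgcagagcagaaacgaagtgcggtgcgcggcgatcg
Nr4a1: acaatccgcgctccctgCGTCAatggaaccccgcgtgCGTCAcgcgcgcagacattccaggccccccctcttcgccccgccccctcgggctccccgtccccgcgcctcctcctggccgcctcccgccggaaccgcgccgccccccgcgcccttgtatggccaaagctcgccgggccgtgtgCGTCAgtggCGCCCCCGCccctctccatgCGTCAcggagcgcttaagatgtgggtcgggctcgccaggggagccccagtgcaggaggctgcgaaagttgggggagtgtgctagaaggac
Fosb: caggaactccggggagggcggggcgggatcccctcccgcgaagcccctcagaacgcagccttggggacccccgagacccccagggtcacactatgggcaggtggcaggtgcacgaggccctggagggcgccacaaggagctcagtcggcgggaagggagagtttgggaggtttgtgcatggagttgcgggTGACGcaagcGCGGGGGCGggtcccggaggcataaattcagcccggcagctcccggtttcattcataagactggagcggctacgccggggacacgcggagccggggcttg
Fos: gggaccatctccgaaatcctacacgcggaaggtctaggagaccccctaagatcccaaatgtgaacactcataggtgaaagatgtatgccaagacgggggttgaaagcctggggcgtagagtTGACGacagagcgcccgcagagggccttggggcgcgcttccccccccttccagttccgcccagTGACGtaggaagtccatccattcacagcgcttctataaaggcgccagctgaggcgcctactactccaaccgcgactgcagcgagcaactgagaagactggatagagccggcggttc
Atf3: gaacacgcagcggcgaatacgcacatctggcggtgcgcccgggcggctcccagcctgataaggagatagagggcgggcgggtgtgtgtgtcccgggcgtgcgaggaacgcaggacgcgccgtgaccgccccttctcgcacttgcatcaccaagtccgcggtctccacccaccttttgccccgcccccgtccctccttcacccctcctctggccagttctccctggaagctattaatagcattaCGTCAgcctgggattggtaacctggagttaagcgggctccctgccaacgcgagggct
Of the 8 members found in the promoter table, 5 held TGACG (Fos, Fosb, Junb, Nr4a1 and Atf3), against 20.8% of 32851 RefSeq promoters, and 3 held GCGNGGGCG (Fosb, Fosl2 and Nr4a1), against 5.55%. Nr4a1 held 4 TGACG matches, all on the other strand, and 1 EGR match that begins 60 bases before the start. In Fosb the TGACG match begins 60 and the EGR match 50 bases before the start, and in Fos the TGACG matches begin 129 and 66 bases before it. No member window held TGACGTCA, the AP-1 site TGANTCA, the NR4A site AAAGGTCA or the CArG box of SRF, which stood in 1.79%, 7.81%, 1.51% and 1.63% of all promoters. Fosl1 and Egr1 were not shown or searched here, and for the other members sites more than 250 bases before the start were not searched. A match is a string of letters and not a measured binding site.

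The microRNA removed in the KO mice has the mature sequence below, from RefSeq on GRCm38.p6, at chr7:141221407-141221428 on the minus strand, with its seed, bases 2 to 8, in capitals.
mmu-miR-210-3p: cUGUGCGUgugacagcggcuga
None of the 10 members carried the 7-base match to this seed in an annotated 3′ UTR, against 534 of 14496 tested genes, 3.68%.

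Per length, most members were among the most abundant transcripts of these cells, in sham as well as after HI. In WT sham libraries Fos stood at 646 ± 23.8 CPM per kilobase of exon (SD, n = 3), the 45th highest of 14618 genes, Junb at 428, Jun at 280.0, Egr1 at 253, Jund at 179, Fosb at 123, Nr4a1 at 96.8 and Atf3 at 81.5. Fosl2 was lower at 10.2 CPM per kilobase, and Fosl1 was near 0 at 0.0496. In KO HI libraries the order by level per kilobase was Fos at 612, Junb at 468, Egr1 at 368, Jun at 341, Jund at 164, Atf3 at 152, Fosb at 70.8, Nr4a1 at 44.7, Fosl2 at 6.6 and Fosl1 at 0.393. Atf3 thus stood above Fosb and Nr4a1 in KO HI and below Fosb in WT sham libraries. In WT sham its mean was below that of Nr4a1 too, but these libraries overlapped. Atf3 reached 95.3 CPM per kilobase there, and the lowest Nr4a1 value was 79.7. The neighbours Fos and Junb, Egr1 and Jun, and Jund and Atf3 lay within 1 SD of each other in KO HI libraries.

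**Figure D1:**
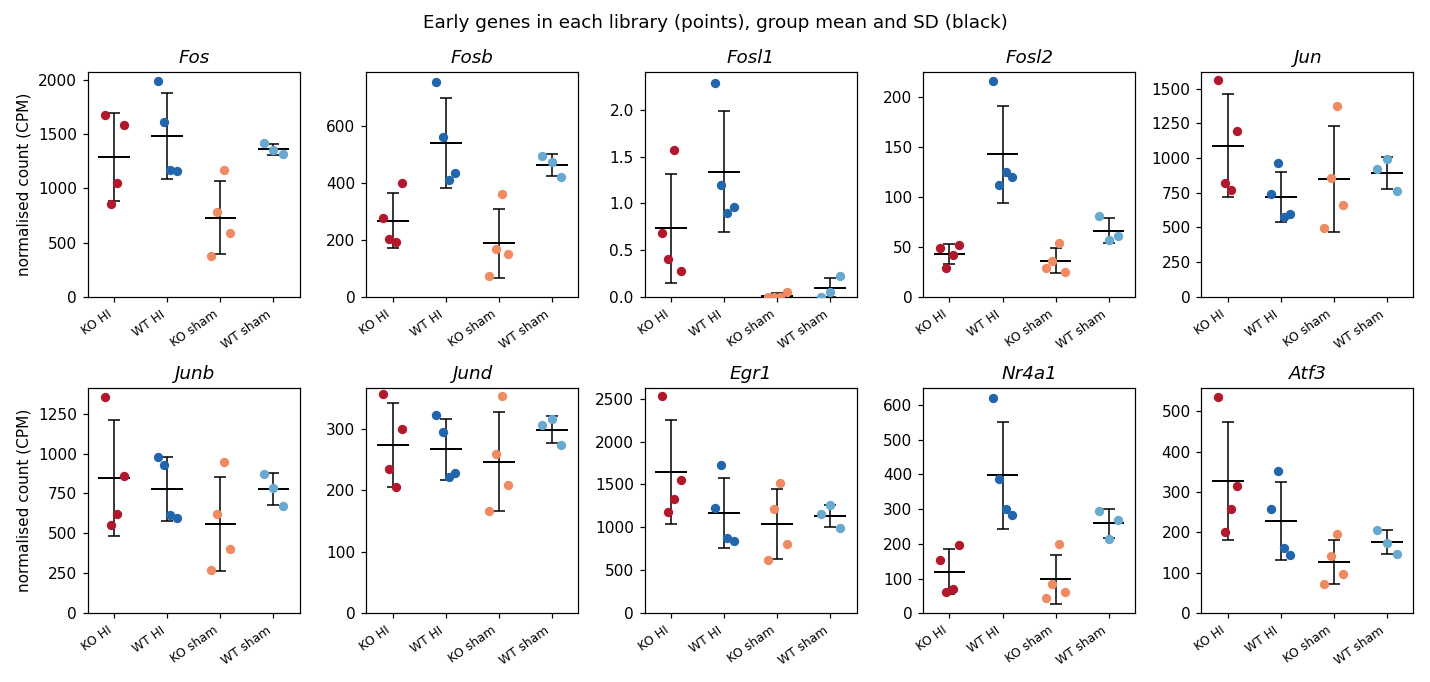
Normalised counts (CPM, linear axes from 0) of the 10 early genes in each library, by group, with the group mean and SD in black. Fosl2 and Nr4a1 are lower in every KO HI than in every WT HI library, and Fosl1 is near 0 in both sham groups.

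After HI, KO cells held less Fosl2 and Nr4a1 than WT cells. Fosl2, a FOS relative that typically appears late after a stimulus, had 48.8, 29.5, 42.4 and 51.9 CPM in KO HI libraries, against 216, 112, 125 and 120.2 CPM in WT HI libraries. The groups were far apart, the highest KO HI library standing below the lowest WT HI library, and WT HI 1 was well above the other WT HI libraries. The log2 fold change was -1.73 ± 0.28 (SE; edgeR adjusted p = 0.00547), or 3.32-fold lower in KO HI.
Nr4a1, a nuclear receptor with no known natural ligand that responds to the same signals as Fos, had 153, 61.2, 68.7 and 196 CPM in KO HI libraries, against 619, 388, 301 and 284 CPM in WT HI libraries. No KO HI library reached the lowest WT HI library, and KO HI 2 and KO HI 3 were the lowest. Its log2 fold change was -1.73 ± 0.49 (edgeR adjusted p = 0.0356). Fosb, a FOS relative with its own activation domain, had 277, 203, 192 and 399 CPM in KO HI libraries, against 755, 561, 410.1 and 434 CPM in WT HI libraries. These groups did not overlap either, but the log2 fold change of -1.01 ± 0.39 missed the threshold (edgeR adjusted p = 0.104). DESeq2 called it (-1.02, adjusted p = 0.0372), where it called 22.9% of all tested genes, and so did edgeR without KO sham 1 (adjusted p = 0.032) and without KO sham 4 (adjusted p = 0.0419), where 24.4% and 14.2% were called.

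The other members showed no such gap. Fos averaged 1289 ± 403 CPM in KO HI and 1482 ± 400.0 CPM in WT HI libraries (SD, n = 4 each), with a log2 fold change of -0.20 ± 0.32. Jun, the main partner of FOS proteins, had 1565, 819.6, 768 and 1196 CPM in KO HI libraries, against 739, 963, 574 and 596 CPM in WT HI libraries, and the groups overlapped. Its log2 fold change was 0.60 ± 0.31 (edgeR adjusted p = 0.2). Egr1 averaged 1649 ± 605 CPM in KO HI and 1169 ± 411 CPM in WT HI, and Atf3 327 ± 145 CPM in KO HI and 228 ± 95.9 CPM in WT HI, with log2 fold changes of 0.50 ± 0.32 and 0.52 ± 0.37. Junb, a JUN relative that often opposes JUN, and Jund, the most steadily expressed of the family, had log2 fold changes of 0.12 ± 0.36 and 0.04 ± 0.23. Fosl1 was at -0.86 ± 0.68.

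In all, 0 members were called higher and 2 lower in KO HI, where 12.4% of all tested genes were called and the median of the members was -0.08, against 0.06 for all genes. Groups that did not overlap and were lower in KO HI were found for 3 members (Fosl2, Nr4a1 and Fosb) and for 11.5% of tested genes. The Fosl2 call held under 21 of 22 alternatives and missed only with the replicate block, at an adjusted p of 0.0514. The Nr4a1 call held under 11 of 22: without any 1 of WT sham 1, 2 and 3, WT HI 1, 4 and 5 and KO HI 1, 2 and 3 its edgeR adjusted p was 0.0504 to 0.116, and without the 5 libraries of high neuron markers its log2 fold change was -1.21 (adjusted p = 0.0952).

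Several cell markers moved in the same comparison. Pericyte markers were lower for 10 of 10 genes in KO HI, 4 of them called (Pdgfrb, Cspg4, Rgs5 and Notch3), and summed to 1671 to 5586 CPM in KO HI, against 5792 to 8074 CPM in WT HI libraries. Endothelial markers were called lower for 5 of 9 genes and summed to 2277 to 4586 CPM in KO HI, against 6993 to 9190.2 CPM in WT HI. Microglia markers were called higher for 9 of 9 genes, among them Aif1 and P2ry12, and summed to 6087 to 12987 CPM in KO HI, against 1797 to 4779 CPM in WT HI. The 10 neuron markers were all positive with none called and summed to 23.4 to 645 CPM in KO HI, against 29 to 32.1 CPM in WT HI. Of 7 smooth muscle markers 2 were called lower and of 6 neutrophil and monocyte markers 2 higher. The fibroblast, astrocyte, oligodendrocyte and choroid plexus and ependymal markers gave no call, but their fitted values leaned to 1 side. Fibroblast markers were negative for 6 of 6 (median -1.22). Oligodendrocyte markers were positive for 7 of 7 (median 4.44), choroid plexus and ependymal markers for 5 of 5 (median 1.88) and astrocyte markers for 5 of 6 (median 1.62). The part of these cell types in the Fosl2 and Nr4a1 levels was not tested.

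In sham animals, all 10 members had a lower fitted level in KO than in WT libraries and none was called. Fos had 376, 783, 1168 and 589 CPM in KO sham libraries, against 1415, 1352 and 1316 CPM in WT sham libraries. The WT sham libraries lay close together and above every KO sham library, while the KO sham libraries were widely spread. The log2 fold change was -0.90 ± 0.34 (edgeR adjusted p = 0.477). Nr4a1 had 43.7, 83.8, 199.8 and 62.3 CPM in KO sham libraries, against 295, 213 and 269.8 CPM in WT sham libraries, and these did not overlap (log2 fold change -1.41 ± 0.51). Fosb averaged 188 ± 122 CPM in KO sham (SD, n = 4) and 464 ± 38.1 CPM in WT sham (SD, n = 3), and Fosl2 36.3 ± 12.7 CPM in KO sham and 66.5 ± 12.6 CPM in WT sham, again without overlap.

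The JUN family and Egr1 differed less. Jun averaged 847 ± 381 CPM in KO sham and 893 ± 116 CPM in WT sham, and Egr1 1039.6 ± 403 CPM in KO sham and 1134 ± 131 CPM in WT sham. Their log2 fold changes, -0.08 ± 0.33 and -0.13 ± 0.34, became 0.27 and 0.11 without the 5 libraries of high neuron markers. The median of the members was -0.67, against 0.05 for all genes, in a comparison where edgeR called 2 genes, 0.0135%. At an unadjusted p under 0.05 there were 4 members with edgeR (Fos, Fosb, Fosl2 and Nr4a1), 4 with DESeq2 and 4 with limma-voom, and none of these tools called a member. Groups lower in KO without overlap were found for these 4 members and for 5.49% of tested genes. Pericyte markers were negative for 10 of 10 genes with none called, and summed to 2911 to 8439.8 CPM in KO sham, against 8043 to 11059 CPM in WT sham libraries. Fibroblast markers were negative for 6 of 6 (median -0.95) and did not overlap, at 1409.9 to 4552 CPM in KO sham and 5388 to 5533 CPM in WT sham. Endothelial markers were negative for 9 of 9 (median -0.48), at 2692 to 7602 CPM in KO sham and 7444 to 8653 CPM in WT sham, and microglia markers positive for 9 of 9 (median 0.70), at 3283 to 5887 CPM in KO sham and 2459 to 3506 CPM in WT sham, none of them called. KO sham 1 had the lowest Fos level and the highest neuron markers, 1047 CPM summed, while KO sham 4, with the highest Fos level of its group, had 43.6 CPM. The other KO sham libraries went the other way: KO sham 3, with more Fos than KO sham 6, had 208 CPM of neuron markers, against 69.4 CPM. Pericyte markers of KO sham 1, 3, 4 and 6 summed to 2911, 5747, 8439.8 and 5029.9 CPM, in the same order as Fos. The part of any of these cells in the sham levels was not tested.

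**Figure D2:**
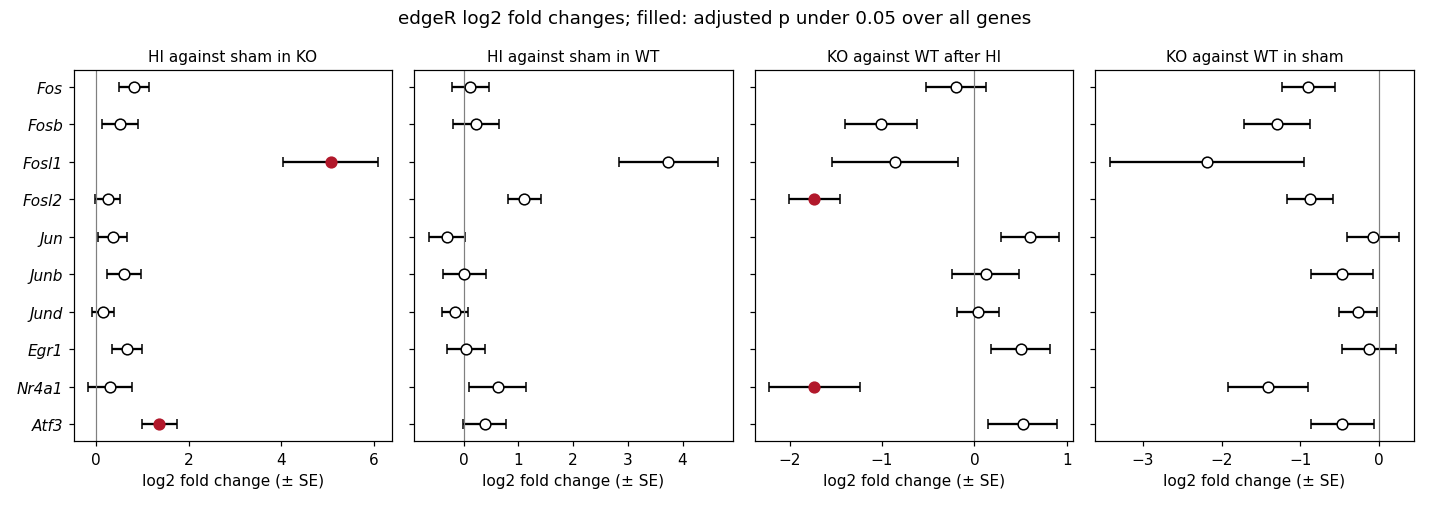
edgeR log2 fold changes with standard errors for the 10 early genes in 4 comparisons, each panel with its own scale. Filled points passed an adjusted p of 0.05 over all tested genes: Fosl1 and Atf3 for HI against sham in KO, and Fosl2 and Nr4a1 for KO against WT after HI.

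At 24 h after HI, the members that had risen in KO cells were Fosl1 and Atf3. Fosl1, a FOS relative linked to invading cells, had 12, 7, 26 and 5 counts in KO HI libraries, against 0, 0, 0 and 1 counts in KO sham libraries. All 4 KO HI libraries stood above all KO sham libraries, at levels of 0.279 to 1.57 CPM. Summed over libraries, 50 counts stood against 1 between the KO HI and KO sham groups, a ratio of 48.1 after scaling with an exact 95% interval of 8.24 to 1936 that covers counting error only. The edgeR log2 fold change was 5.07 ± 1.02 (adjusted p = 0.0131).
Atf3, induced by many cell stresses, had 534, 202, 259 and 314 CPM in KO HI libraries, against 73, 141, 197 and 96.6 CPM in KO sham libraries. KO HI 2, the lowest of its group, was just above KO sham 4, so the groups did not overlap. The log2 fold change was 1.37 ± 0.38 (edgeR adjusted p = 0.0459), or 2.58-fold.

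The remaining members were positive but not called. Fos had 1673, 852, 1045 and 1587 CPM in KO HI libraries, against 376, 783, 1168 and 589 CPM in KO sham libraries, and the groups overlapped. Its log2 fold change was 0.82 ± 0.32 (edgeR adjusted p = 0.144). Egr1, Junb and Fosb had log2 fold changes of 0.67 ± 0.32, 0.60 ± 0.36 and 0.51 ± 0.39, and Jun, Nr4a1, Fosl2 and Jund lay between 0.15 and 0.36.
In all, 2 members were called higher in KO HI than in KO sham, where 7.01% of tested genes were called in either direction, and the median of the members was 0.55, against -0.06 for all genes. Groups higher in KO HI without overlap were found for these 2 members and for 6.06% of tested genes. Microglia markers were called higher for 3 of 9 genes and summed to 6087 to 12987 CPM in KO HI, against 3283 to 5887 CPM in KO sham, and neutrophil and monocyte markers for 4 of 6 genes, at 377 to 873 CPM in KO HI, against 162 to 355 CPM in KO sham. Smooth muscle markers were negative for 7 of 7 (median -1.05), with Acta2 and Myl9 called lower, and summed to 739.8 to 1369 CPM in KO HI, against 1545 to 4165 CPM in KO sham, without overlap. Endothelial markers were negative for 9 of 9 with none called (median -0.53), at 2277 to 4586 CPM in KO HI and 2692 to 7602 CPM in KO sham. Their part in the Fosl1 and Atf3 levels was not tested. The Fosl1 call was lost with the replicate block (adjusted p = 0.069) and without the 5 libraries of high neuron markers (log2 fold change 3.77, adjusted p = 0.0875), and without KO sham 6, which held the only KO sham count, the fitted value was 6.67. Atf3 passed in 6 of 22 alternatives: leaving out any library other than KO sham 4, WT HI 2 or KO HI 2 gave an edgeR adjusted p of 0.0541 to 0.163.

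In WT cells, HI gave the largest positive values for Fosl1 and Fosl2, and no member was called. Fosl1 had 40, 21, 16 and 17 counts in WT HI libraries, against 0, 1 and 4 counts in WT sham libraries. The summed counts, 94 in WT HI and 5 in WT sham, gave a ratio of 14.3 (exact 95% interval 5.9 to 45, counting error only). The edgeR log2 fold change was 3.74 ± 0.91 (adjusted p = 0.056). Fosl2 had 216, 112, 125 and 120.2 CPM in WT HI libraries, against 80.8, 57.3 and 61.4 CPM in WT sham libraries, without overlap. Its log2 fold change was 1.11 ± 0.30 (edgeR adjusted p = 0.0826).
The levels of the most abundant members were close in the 2 WT groups. Fos averaged 1482 ± 400.0 CPM in WT HI (SD, n = 4) and 1361 ± 50.3 CPM in WT sham (SD, n = 3), Egr1 1169 ± 411 CPM in WT HI and 1134 ± 131 CPM in WT sham, and Junb 779 ± 202 CPM in WT HI and 775 ± 100.1 CPM in WT sham. Jun had a log2 fold change of -0.31 ± 0.33 and Nr4a1 of 0.62 ± 0.52. edgeR called 271 genes in this comparison, 1.82% of those tested, and the median of the members was 0.17, against -0.01 for all genes. Fosl1 and Fosl2 were the members at an unadjusted edgeR p under 0.05 and those higher in WT HI without overlap, a pattern found in 15.9% of tested genes. DESeq2, which called 5.26% of all tested genes, called both (adjusted p = 0.00571 and 0.00758), limma-voom called Fosl1 (adjusted p = 0.0379), and a fit of the 2 WT groups alone, in which 17.1% of 14253 genes were called, called both (edgeR adjusted p = 0.017 and 0.024). edgeR also called Fosl1 without KO sham 1 (adjusted p = 0.0437) and without KO HI 3 (adjusted p = 0.0436).
Cell markers moved here too. The 6 neutrophil and monocyte markers were all positive (median 1.33, none called) and summed to 149 to 371 CPM in WT HI, against 135 to 192 CPM in WT sham. The microglia marker P2ry12 was called lower, while the 9 markers together overlapped, at 1797 to 4779 CPM in WT HI and 2459 to 3506 CPM in WT sham. None of the 10 neuron and 7 oligodendrocyte markers was positive or called (medians -1.43 and -3.04), and the neuron markers summed to 29 to 32.1 CPM in WT HI, against 39.9 to 95.6 CPM in WT sham, without overlap. The part of these cells in the WT values, the AP-1 targets below included, was not tested.

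Whether the 2 genotypes responded unequally to HI was tested as a difference of the log2 fold changes, KO minus WT, and it was not called for any member, nor for any of the 14853 tested genes, 0%, with edgeR. At an unadjusted p under 0.05 there were 0 members and 768 genes with edgeR, 1 member with DESeq2 and 0 members with limma-voom. Fosl2 came closest, with a difference of -0.86 ± 0.40 (edgeR adjusted p = 0.932): its log2 fold change was 0.25 ± 0.27 in KO and 1.11 ± 0.30 in WT cells. Atf3 had a difference of 0.99 ± 0.54 and Fos of 0.70 ± 0.46. That Atf3 passed in KO and Fosl2 had the larger value in WT cells does not show that the responses differ.

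The proportions of the members within a library do not depend on how libraries are scaled, so each member with at least 100 counts in every library was set against the Fos counts of the same library. This measure was chosen after the values had been seen, and the 16 tests, 8 for genotype and 8 for HI, share the Fos counts. The log2 fold change of Fos itself in KO against WT was -0.90 in sham and -0.20 after HI, so a gene with no difference stands higher against it. Of 10096 tested genes with at least 100 counts in every library, 93.5% stood higher against Fos in KO than in WT libraries, with a median log2 difference of 0.62 (1.01 in sham and 0.23 after HI), and 51.7% had an unadjusted exact permutation p under 0.05. Jun, Egr1, Junb, Jund and Atf3 stood higher against Fos in KO than in WT libraries, as most genes did, and Fosb, Nr4a1 and Fosl2 lower. In sham none of the 5 that stood higher had a positive log2 fold change of its own level. Jun reached 0.735 to 1.314 counts per Fos count in the 8 KO libraries, against 0.371 to 0.734 in the 7 WT libraries, with no overlap. The mean difference over sham and HI was 0.82 on the log2 scale (exact permutation within sham and within HI, 2450 arrangements, two-sided p = 0.000408, the smallest it can give; adjusted over the 16 tests, 0.00245), and 23.2% of the 10096 genes had a larger one. Fosb showed the reverse, at 0.166 to 0.309 in KO and 0.321 to 0.379 in WT libraries, a log2 difference of -0.66 (exact permutation adjusted p = 0.00245), with 0.386% of the genes below it.

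Nr4a1 had a log2 difference of -1.12 (exact permutation adjusted p = 0.00245), with 0.088 ± 0.026 counts per Fos count in KO HI, 0.264 ± 0.032 in WT HI, 0.125 ± 0.031 in KO sham and 0.190 ± 0.028 in WT sham libraries (SD, n = 4, 4, 4 and 3). Fosl2 differed after HI, at 0.034 ± 0.005 in KO HI and 0.097 ± 0.019 in WT HI, a log2 difference of -1.49, while in sham the log2 difference was 0.10. Over both conditions its adjusted p was 0.0338 by the same exact permutation. Egr1, Atf3, Jund and Junb had log2 differences of 0.76, 0.60, 0.47 and 0.35 (exact permutation adjusted p = 0.00245, 0.00245, 0.00363 and 0.00245). The median of the 10096 genes was 0.62, with 53.3% of them above Atf3 and 28.1% below Jund. The values of Atf3, Jund and Junb thus lay below that of the median gene. Within sham alone or HI alone the smallest p that this design allows is 0.0286. Without the 5 libraries of high neuron markers the differences were 0.84 for Jun, -0.54 for Fosb, -0.96 for Nr4a1 and -0.92 for Fosl2, and leaving out 1 library at a time turned no sign among the 8 genes.

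For HI against sham, 3 of the 8 proportions passed, where the 10096 genes had a median log2 difference of -0.50 and 37.3% an unadjusted p under 0.05. Jun and Jund stood lower against Fos in HI than in sham libraries, with log2 differences of -0.45 and -0.49 over both genotypes (exact permutation adjusted p = 0.00245 each), and Atf3 higher, with 0.35 (adjusted p = 0.0338). The values of Jun and Jund are near the median of all genes, and 1.82% of genes lay above Atf3. Jund had 0.219 ± 0.039 counts per Fos count in KO HI, 0.183 ± 0.015 in WT HI, 0.358 ± 0.061 in KO sham and 0.219 ± 0.013 in WT sham libraries. The other 5 members did not pass, Nr4a1 and Fosb with log2 differences of -0.02 and -0.06.

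**Figure D3:**
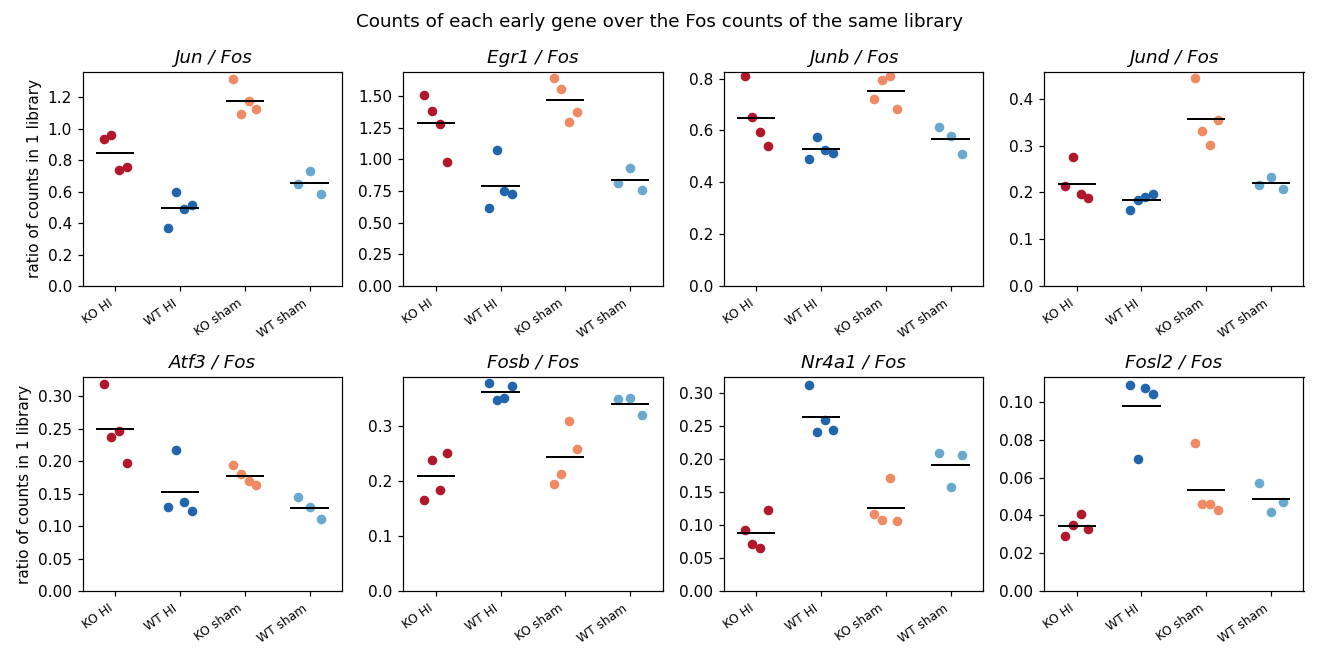
Counts of 8 early genes divided by the Fos counts of the same library (linear axes from 0), with group means as black lines. Jun stands higher in all KO than in all WT libraries, and Fosb lower, in HI and in sham, while the median gene also stood higher against Fos in KO, by 0.62 on the log2 scale.

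The members also varied together between libraries of the same group. After the group means had been removed from log2 CPM, all 36 pairs without Fosl1 were positive over the 15 libraries, with a median Pearson r of 0.89 and a range of 0.52 to 0.98, and 33 of them passed a permutation test adjusted over the 45 pairs. Egr1 with Atf3 had the highest value, r = 0.98, and Fosl2 with Egr1 the lowest, r = 0.52 (Spearman rho = 0.56, permutation adjusted p = 0.14 and 0.097). Without the 2 libraries farthest from the median, mostly KO sham 1 and KO sham 4, the 36 values ran between 0.40 and 0.97 with a median of 0.81. The 9 pairs with Fosl1, whose counts are near 0 in sham, had a median r of -0.03 and none passed. The 2 genes of a pair are read from the same library at the same depth, so the values describe how the transcripts moved together in these samples. The share of all gene pairs that would pass was not computed, so whether the 33 are particular to early genes is not known. Pericyte markers also differed within groups, at 2911 to 8439.8 CPM in KO sham, and the part of cell types was not tested.

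**Figure D4:**
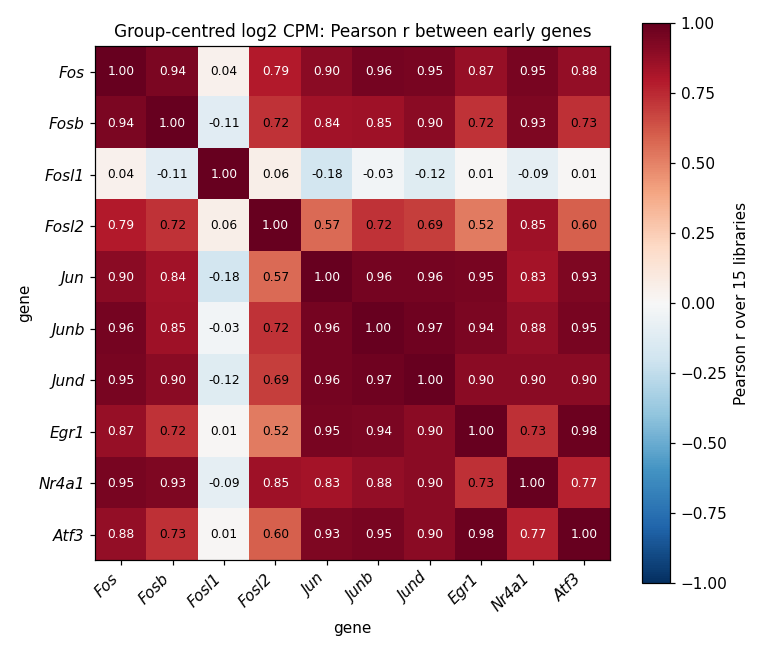
Pearson r between the group-centred log2 CPM of each pair of early genes over 15 libraries, with colours running from -1 to 1. All pairs without Fosl1 are positive, between 0.52 and 0.98.

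Among 10648 genes with a mean of at least 10 CPM, the non-members most like Fos by the same measure over the 15 libraries were Ppp1r15a, Ier2, Dusp1, Socs3 and Map3k8, with r = 0.97, 0.97, 0.97, 0.96 and 0.96. Ppp1r15a is a phosphatase subunit of the stress response, Ier2 another early gene, Dusp1 a phosphatase that switches off MAP kinases, Socs3 an inhibitor of cytokine signalling and Map3k8 a kinase of the ERK pathway. Of the members, Junb had r = 0.96, with 5 genes above it, and Jund and Nr4a1 r = 0.95, with 10 above each. Fosl2 was less like Fos, at r = 0.79 with 494 genes above it.

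Most of the listed genes known to respond to AP-1 rose after HI in both genotypes. The list was chosen with earlier results of these data known, so its calls describe these genes and are no independent test. Of 13 tested AP-1 target genes, 9 (69.2%) were called higher in KO HI than KO sham, where 7.01% of all tested genes were called in either direction. In WT HI against WT sham 8 (61.5%) were called higher, where 1.82% of all tested genes were called in either direction. The medians of the list were 1.59 in KO and 1.76 in WT cells, against -0.06 and -0.01 for all genes. The part of the cell types given above in the target values of either genotype was not tested. Timp1, an inhibitor of matrix metalloproteinases, averaged 24.9 ± 4.23 CPM in KO HI and 5.36 ± 2.42 CPM in KO sham (log2 fold change 2.21 ± 0.28, edgeR adjusted p = 0.00131). In WT cells it averaged 57.6 ± 7.93 CPM after HI and 5.96 ± 0.924 CPM in sham (3.27 ± 0.32, adjusted p = 0.000357). Cd44, a receptor for hyaluronan, had log2 fold changes of 1.53 ± 0.22 in KO and 1.89 ± 0.24 in WT cells. Mmp3, a matrix metalloproteinase, averaged 5.73 ± 1.14 CPM in KO HI and was at 0 in every KO sham library, at least 31.5-fold higher against a floor of 3 counts per library, and with that bound the median of the list stayed at 1.59.

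After HI, 3 of the 13 targets (23.1%, against 12.4% of all tested genes) were called lower in KO than in WT cells and none higher, with a median of -0.35, against 0.06 for all genes. Ptgs2, the inducible cyclooxygenase, averaged 44 ± 20.7 CPM in KO HI and 149 ± 18.2 CPM in WT HI (log2 fold change -1.76 ± 0.31, edgeR adjusted p = 0.00695). The cytokine Il6 averaged 1.84 ± 0.652 CPM in KO HI and 11.6 ± 7.63 CPM in WT HI (-2.66 ± 0.52, adjusted p = 0.00957), and Timp1 had a log2 fold change of -1.21 ± 0.27 (adjusted p = 0.0141). In sham none was called. Ptgs2 had the smallest p there, with 6.51 ± 2.15 CPM in KO sham and 22.8 ± 3.53 CPM in WT sham (-1.80 ± 0.34, edgeR adjusted p = 0.273).

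**Figure D5:**
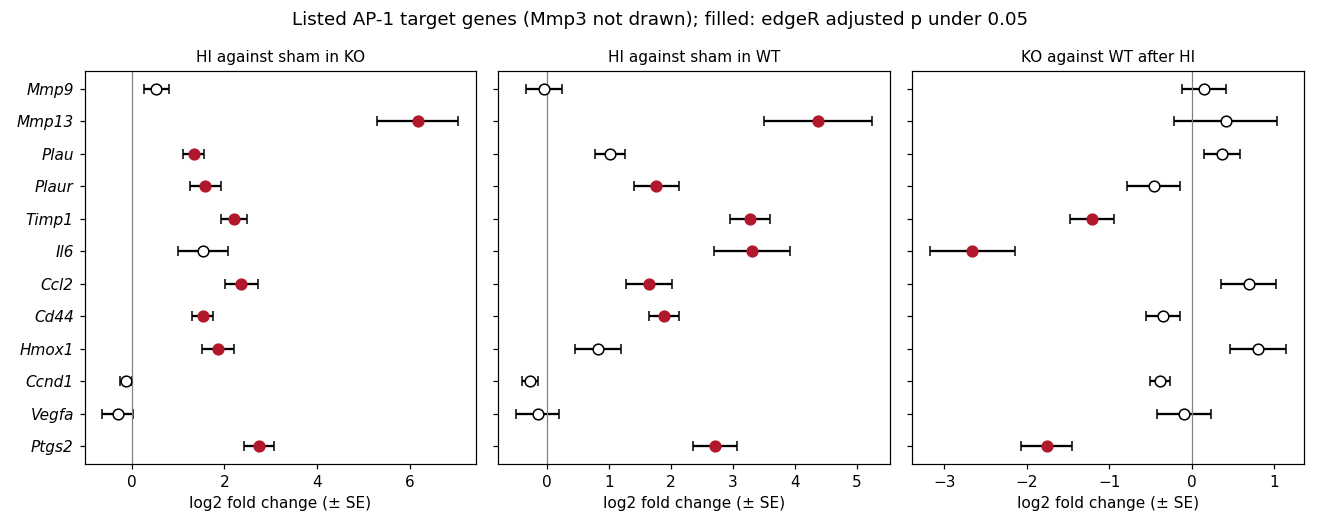
edgeR log2 fold changes with standard errors for listed AP-1 target genes, without Mmp3, each panel with its own scale; filled points passed an adjusted p of 0.05. Most rose with HI in both genotypes, and Ptgs2, Il6 and Timp1 were lower in KO HI than in WT HI.

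The relatives and regulators of the members were read in the same comparisons, and their calls after HI stand beside the 12.4% of all tested genes called between KO HI and WT HI. Of 7 EGR and NR4A relatives, Nab2, a corepressor of EGR1, was called higher in KO HI than KO sham (64.6 ± 18.9 CPM in KO HI, 35.7 ± 10.2 CPM in KO sham, log2 fold change 0.85 ± 0.23, edgeR adjusted p = 0.0421). That is 14.3% of the list, against 7.01% of all tested genes in that comparison, and the KO groups overlapped. In WT cells Nab2 was not called (0.61 ± 0.25, edgeR adjusted p = 0.304). There the groups did not overlap, at 56 ± 6.08 CPM in WT HI and 36.6 ± 3 CPM in WT sham. Nr4a2, a close relative of Nr4a1, was the 1 of the 7 (14.3%) called between KO and WT after HI, and averaged 5.65 ± 1.76 CPM in KO HI and 23.8 ± 10.6 CPM in WT HI (-2.07 ± 0.30, adjusted p = 0.00547). Of 12 other zipper proteins, 3 (25%) were called lower in KO HI than WT HI: Mafk, a small MAF protein (-0.95 ± 0.23), Jdp2, a JUN-binding repressor (-0.49 ± 0.12), and Crem, a CREB relative (-0.60 ± 0.16). None of the 12 was called in the other comparisons.

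Of 23 other serum-response early genes, 4 (17.4%) were called lower in KO HI than WT HI and none higher: Sik1, a kinase induced by cyclic AMP (37 ± 5.98 CPM in KO HI, 123 ± 34.9 CPM in WT HI, -1.73 ± 0.27, edgeR adjusted p = 0.00547), Ier5l, Plk2 and Klf4. In KO cells HI raised Trib1 (0.99 ± 0.18) and Ier3 (1.21 ± 0.28), 8.7% of the list and near the 7.01% of all tested genes. In WT cells, where 1.82% of all tested genes were called, none of the 23 was called. Trib1 and Ier3 were positive there too, at 0.76 ± 0.19 and 0.78 ± 0.31 (edgeR adjusted p = 0.067 and 0.28). Both were higher in WT HI than in WT sham libraries without overlap. In sham 3 of the 23 had a positive fitted value in KO against WT and none was called, with a median of -0.45. Of 11 MAP kinase phosphatases and feedback inhibitors, the ERK inhibitors Spry1 (-1.38 ± 0.24, adjusted p = 0.00634) and Spry4 (-1.42 ± 0.27) and the phosphatase Dusp2 (-1.50 ± 0.38) were called lower in KO HI than WT HI, 27.3% of that list. Of 17 upstream kinases and promoter factors, Srf (81.2 ± 8 CPM in KO HI, 122 ± 12.6 CPM in WT HI, -0.59 ± 0.14, adjusted p = 0.0212) and its coactivator Mrtfb (-1.08 ± 0.19, adjusted p = 0.00615) were lower in KO HI, 11.8% of the list and near the share over all genes. No gene of the last 2 lists was called in the other comparisons.

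Heat shock genes, which tissue dissociation can raise together with early genes, were read beside these results. Of 11, 2 (18.2%, against 12.4% of all tested genes) were called between KO and WT after HI. Hspb1 (-0.89 ± 0.25, edgeR adjusted p = 0.0337) and Hspa1b (-1.37 ± 0.38, adjusted p = 0.0331) were lower in KO HI than WT HI. Hspa8 was higher in KO HI than KO sham (0.53 ± 0.12, adjusted p = 0.0233), which is 9.09% of the list, against 7.01% of all tested genes. The 11 genes summed to 4617 to 6016 CPM in KO HI, 4686 to 5026 CPM in WT HI, 4219 to 4369.8 CPM in KO sham and 4317 to 4701 CPM in WT sham libraries. Hspa1b shares most of its sequence with its neighbour Hspa1a, so how its reads were split between them is uncertain. The part of cell handling in the early gene levels was not tested.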

How the data were processed

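The authors deposited 1 table of expected counts per gene, estimated reads without normalization. The submitters' processing notes list RSEM 1.3.1, HISAT2 2.1.0, Bowtie and Bowtie2 2.4.4, DESeq2 1.4.5 and the mm39 build, whose order and settings are not given in the sources used here. Its 15 columns were matched to the samples by title. The table has 65535 lines, 17892 of them with values, and blank lines were not read as 0. Gene symbols of 17862 lines came from RefSeq by numeric gene ID.

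Counts were rounded to whole numbers. The main test was edgeR 4.0.16 in R 4.3.3: filterByExpr, TMM normalization, 1 mean per group over all 15 libraries, glmQLFit and glmQLFTest, with Benjamini-Hochberg adjustment over 14853 genes and a threshold of 0.05, in 5 contrasts. Other settings were RLE normalization, DESeq2 1.42.0, limma-voom (limma 3.58.1), no filter, the replicate number as a block, only the compared groups, each library left out, and the 5 libraries of highest neuron markers left out. Log2 CPM used a prior count of 2. Exon lengths and 3′ UTRs came from GENCODE vM21 on GRCm38, used for lengths and seed matches only. The code was tested on simulated data. Between 3.12% and 3.92% of values per library were not whole. Same-numbered libraries of different groups correlated between -0.80 and 0.82 after centring, over 0.1 in 10 of 15 pairs. Differently numbered libraries were not compared, so these values cannot decide whether the numbers mark pairs. The main test did not take them as pairs. Genes that share reads with near copies may be split by the authors' counting.

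The members and gene lists were chosen with earlier results of these data known. A gene of the list of AP-1 targets is not reported here and was left out of its counts and medians. Named genes were all 10 members, up to 4 called genes of each other list and contrast by smallest p or, where none was called, up to 3 by smallest p, and the 5 genes most like Fos.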

Additional observations from a re-analysis of the deposited data

Results flagged for a closer look

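Of 30 groups of 4 libraries, 1 for each member in each such group, 2 had a library far from the other 3 by Dixon's gap test at 95%. Chance flags about 1 in 20 groups. Fosl2 in WT HI 1 was at 216 CPM, against 112 to 125 CPM in the other WT HI libraries, a gap of 0.876 of the range. Without that library the Fosl2 log2 fold change between KO and WT after HI was -1.47 (edgeR adjusted p = 0.0255). Fosl1 in KO sham 6 was at 0.0548 CPM, which is 1 count, against 0 in the other KO sham libraries. With the others tied at 0, any count gives a gap of the whole range, so the chance rate does not apply to this flag. No member moved in opposite directions with HI in KO and WT cells without overlap, and the edgeR test of the difference called none.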

How the results depend on the processing

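The number of members called stayed at 0 for KO against WT in sham and for the difference of the responses under every alternative run. For HI against sham in WT, with 0 members called, it was 2 with DESeq2, 1 with limma-voom and 2 with only the groups compared, and 0 to 1 with 1 library left out. For HI against sham in KO, with 2 called, it was 1 with no filter, 0 with only the groups compared (Fosl1 was not tested there), 0 without the 5 libraries of high neuron markers and 1 to 2 with 1 library left out. For KO against WT after HI, with 2 called, it was 3 with DESeq2 (Fosb added), 1 without those 5 libraries and 1 to 3 with 1 library left out. With the replicate block it was 0 for each of these, and the block lowered the calls over all genes to 16, 73, 1 and 21; the libraries share only a number, so this is no paired result.

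Of 1088 values of single members under the alternatives, 1021 kept their sign and their side of the threshold, 30 lost a call, 10 gained one and 27 turned sign, in no case a called value. In WT, limma-voom gave -0.02 for Junb and -0.01 for Egr1, and leaving out 1 library gave -0.12 to 0.14 for Junb, -0.21 to 0.19 for Egr1 and -0.05 to 0.24 for Fos. For HI in KO, leaving out 1 library gave -0.01 to 0.37 for Jund and -0.07 to 0.92 for Nr4a1. In sham, Egr1 was at 0.04 with the replicate block, Jun and Egr1 at 0.27 and 0.11 without the 5 libraries, and -0.41 to 0.11 and -0.36 to 0.06 with 1 left out. After HI, Fos was at 0.12 without the 5 libraries, and Junb and Jund at -0.20 to 0.28 and -0.11 to 0.16 with 1 left out. The difference of the responses ran from -0.18 to 2.93 for Fosl1 and -0.68 to 0.30 for Nr4a1. The cause was not tested.

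Over all genes, the 271, 1041, 2 and 1844 calls of the 4 comparisons became 782, 1932, 32 and 3399 with DESeq2, and 750, 2458, 5 and 3440 without the 5 libraries. With only the groups compared they became 2443 and 16 for HI in WT and KO, and limma-voom called 0 in sham. Leaving out 1 library gave 48 to 554, 355 to 1927, 1 to 2 and 481 to 3605. Fosl1, at 0 to 4 counts per sham library, is limited by depth.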
